A study of Mus musculus with 24 samples.

Results

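The reads of 214 mouse piRNA clusters were compared between round spermatids and pachytene spermatocytes of wild-type testes. The libraries were chosen by their labels, as the small RNA libraries of wild-type genotype with either cell type, and all 214 clusters of the count tables entered. These are 4 of the 12 small RNA libraries and of 24 libraries in all, with 2 spermatocyte and 2 spermatid libraries. The series studies a knock-in at Ddx4, which encodes the germ cell helicase also called MVH or VASA, and the 4 libraries used here come from mice labelled as wild type. Heterozygous and homozygous knock-in libraries of both cell types (2 each) served as a setting for the wild-type change. Cells of all groups came from testes digested in 2 steps and enriched as fractions, and 200 ng of total RNA went into each small RNA library. The labels give neither strain nor age and do not state that libraries of a group come from different animals. The p-values below therefore reflect only the spread between libraries, and that spread may be technical. For edgeR it is pooled over the 6 groups of all 12 small RNA libraries, unless the wild-type libraries alone are named.

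PIWI-interacting RNAs (piRNAs) are small RNAs of the germ line that are cut from long single-stranded transcripts of genomic clusters and loaded onto PIWI proteins. In mouse testis, prepachytene clusters are active early and lie mostly in the transcripts of protein-coding genes. Pachytene clusters are mostly intergenic, are switched on by the transcription factor A-MYB as spermatocytes enter the pachytene stage of meiosis, and supply most piRNAs of the adult testis. Hybrid clusters are expressed both before and at the pachytene stage. Round spermatids are the haploid cells that follow meiosis, and piRNAs bound to MIWI (Piwil1) persist into them.

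Clusters are named after a chromosome band with a number code (intergenic) or after a host gene with the prefix pi- (genic). The tables hold 84 prepachytene clusters, of which 81 are genic, 30 hybrid clusters, of which 26 are genic, and 100 pachytene clusters, of which 93 are intergenic. The listed intervals have a median length of 35.4 kb in the prepachytene class, 27.6 kb in the hybrid class and 18.04 kb in the pachytene class. Class and genic position therefore cannot be told apart for most clusters.

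Sequences are shown for starts of pachytene and prepachytene clusters and for short gaps between neighbouring pachytene clusters. The cluster names give no strand, so whether both clusters of a pair start at their gap was not tested. The letters searched were AACTG and AACGG, core letters of the MYB binding motif, on both strands (CAGTT and CCGTT on the other strand). Promoter windows of 300 bases (250 before and 50 after a RefSeq gene start, GRCm38.p6) lay with their start within 20 bp of a cluster start for 16 pachytene, 7 hybrid and 32 prepachytene clusters. The letters were present in 15 of the 16 pachytene windows (93.8%), all 7 hybrid windows and 13 of the 32 prepachytene windows (40.6%), against 55.1% of all 32851 RefSeq promoters. At least 3 matches were found in 43.8% of the pachytene windows and in 5.66% of all promoters. A match is a description of letters, not a binding site or a cause.

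Capitals mark the matches in all sequences below. The gaps between the 2 clusters of a pair are printed on the plus strand, from a pair among the 10 most abundant clusters and from pairs with 3 and 4 matches, all chosen after their values were seen. The gap between 17-qA3.3-27363.1 and 17-qA3.3-26735.1 is chr17:27325029-27325196, at the RefSeq gene Gm10505. The gap between 7-qD2-24830.1 and 7-qD2-11976.1 is chr7:73816470-73816594, at Gm10619, and that between 7-qF3-3125.1 and 7-qF3-246.1 is chr7:125349773-125349870, at 4933440M02Rik.
17-qA3.3 gap: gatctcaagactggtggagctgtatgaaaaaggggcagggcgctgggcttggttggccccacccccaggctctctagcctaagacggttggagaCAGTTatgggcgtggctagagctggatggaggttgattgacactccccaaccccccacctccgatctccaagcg
7-qD2 gap: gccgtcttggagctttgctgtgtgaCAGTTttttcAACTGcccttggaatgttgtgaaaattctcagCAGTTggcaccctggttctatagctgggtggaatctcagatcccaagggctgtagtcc
7-qF3 gap: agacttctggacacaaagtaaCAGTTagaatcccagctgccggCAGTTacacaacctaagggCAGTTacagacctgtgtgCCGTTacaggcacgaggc

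For contrast, the 250 bases before the gene start are printed for a pachytene cluster with 5 matches, chosen after its values were seen, and for a pair of abundant prepachytene clusters with 0 and 1. They lie on the plus strand at chr2:151127214-151127463 (2-qG3-1029.1, RefSeq gene Gm30478), chr2:156196397-156196646 (pi-Phf20.1) and chr2:154436234-154436483 (pi-Cbfa2t2.1). The share of 2-qG3-1029.1 rose in spermatids (log2 0.39), whereas those of pi-Phf20.1 and pi-Cbfa2t2.1 fell (log2 -1.32 and -1.54). Some other promoter windows, also chosen after their values were seen, were unlike these. Prepachytene clusters pi-Dcaf7.1 (5 matches) and pi-Zfp346.1 (3 matches) fell (log2 -0.71 and -1.15), as did pachytene cluster 10-qC1-117.1 (3 matches). Prepachytene cluster pi-Hif1an.1 (0 matches) rose (log2 1.11). Whether the number of matches goes with the stage change was not tested.
2-qG3-1029.1 upstream: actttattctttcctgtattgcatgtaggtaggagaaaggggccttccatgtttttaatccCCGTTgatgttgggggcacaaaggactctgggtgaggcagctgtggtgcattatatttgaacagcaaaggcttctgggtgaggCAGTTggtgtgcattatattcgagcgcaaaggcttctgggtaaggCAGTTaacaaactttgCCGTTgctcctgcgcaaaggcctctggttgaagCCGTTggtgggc
pi-Phf20.1 upstream: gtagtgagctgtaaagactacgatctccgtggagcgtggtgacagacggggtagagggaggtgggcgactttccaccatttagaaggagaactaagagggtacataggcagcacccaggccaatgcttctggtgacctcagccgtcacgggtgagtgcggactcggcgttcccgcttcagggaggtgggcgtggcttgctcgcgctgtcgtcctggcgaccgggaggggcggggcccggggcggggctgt
pi-Cbfa2t2.1 upstream: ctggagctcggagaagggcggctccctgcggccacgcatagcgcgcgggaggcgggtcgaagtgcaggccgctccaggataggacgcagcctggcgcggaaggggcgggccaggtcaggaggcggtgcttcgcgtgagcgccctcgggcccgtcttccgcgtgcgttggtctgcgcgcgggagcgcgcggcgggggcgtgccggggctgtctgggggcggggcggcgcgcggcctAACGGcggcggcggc

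Wild-type libraries held 26.9 and 27.3 M cluster reads in spermatocytes and 24.1 and 24.0 M in spermatids. The 8 knock-in libraries held 9.23 to 25.9 M, with the homozygous spermatid libraries lowest. Replicates of a wild-type group had a Pearson r of 0.999 over the log2 shares of 214 clusters, and their counts differed by more than counting noise. Small RNA tables hold no marker genes, so the labelled cell types could not be checked in them. In the wild-type round spermatid RNA libraries, all 9 round spermatid markers were found, with summed levels of 69979 and 42415 TPM (the authors' length-normalised transcript level). The 8 spermatocyte markers summed to 416 and 470 TPM there, mostly from Ovol2 (219.5 and 283.3). The 5 spermatogonial markers summed to 54.7 and 46.9 TPM. The 3 erythroid markers summed to 30.6 and 20.6 TPM. The 6 Sertoli cell markers summed to 16.7 and 21.3 TPM, mostly from Clu (14.7 and 18.6), with Sox9 at 0 in 1 library. The knock-in libraries did not all group by their cell type labels. Libraries labelled heterozygous spermatocytes were closer to wild-type spermatid libraries (r 0.992 to 0.997) than to wild-type spermatocyte libraries (0.970 to 0.971). Those labelled heterozygous spermatids were closer to homozygous spermatocyte libraries (0.982 to 0.992) than to wild-type spermatid libraries (0.966 to 0.975). Their r with wild-type spermatocyte libraries was 0.964 to 0.972, much like that with wild-type spermatids. Those labelled homozygous spermatids were closer to wild-type spermatocytes (0.934 to 0.951) than to wild-type spermatids (0.886 to 0.910). Libraries labelled homozygous spermatocytes went with their label, closer to wild-type spermatocytes (0.974 to 0.975) than to wild-type spermatids (0.934 to 0.952). Whether any cell type label is exchanged was not tested, and every stage change in knock-in libraries below takes the labels as given. Wild-type spermatid and spermatocyte libraries had an r of 0.949 to 0.960 with each other. All r values are descriptions over clusters, which share a library. Wild-type results are therefore also given from the 4 wild-type libraries alone, a fit that still takes the wild-type labels as given.

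By the labels as given, cluster reads of wild-type spermatids were more strongly pachytene than those of spermatocytes. The pachytene share of cluster reads was 80.4% and 80.6% in the spermatocyte libraries and 90.2% and 91.2% in the spermatid libraries. Prepachytene clusters held 14.2% and 14.0% in spermatocytes and 5.88% and 5.06% in spermatids, and hybrid clusters held 5.37% in both spermatocyte libraries and 3.90% and 3.74% in spermatids. In each of the 3 classes both spermatid libraries lay on the same side of both spermatocyte libraries.

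The prepachytene share went from 14.1% ± 0.162 to 5.47% ± 0.583 (SD, n = 2 each), 8.64 points or 2.58-fold lower. The hybrid share went from 5.37% to 3.82% and the pachytene share from 80.5% ± 0.159 to 90.7% ± 0.700, 10.2 points higher. An exact two-sided permutation test of 2 against 2 libraries gave p = 0.333 for each class, the smallest p this design allows. By position, genic clusters went from 19.1% to 9.19% and intergenic clusters from 80.9% to 90.8%. Counting error was small beside these differences, with 95% Wilson intervals of at most 0.0150 points to either side for a class share in a wild-type library; these intervals cover counting error alone, because without molecular identifiers reads need not be separate molecules. A share says nothing of absolute amount, and in bulk fractions fewer cells of a type and less RNA per cell cannot be told apart.

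**Figure D1:**
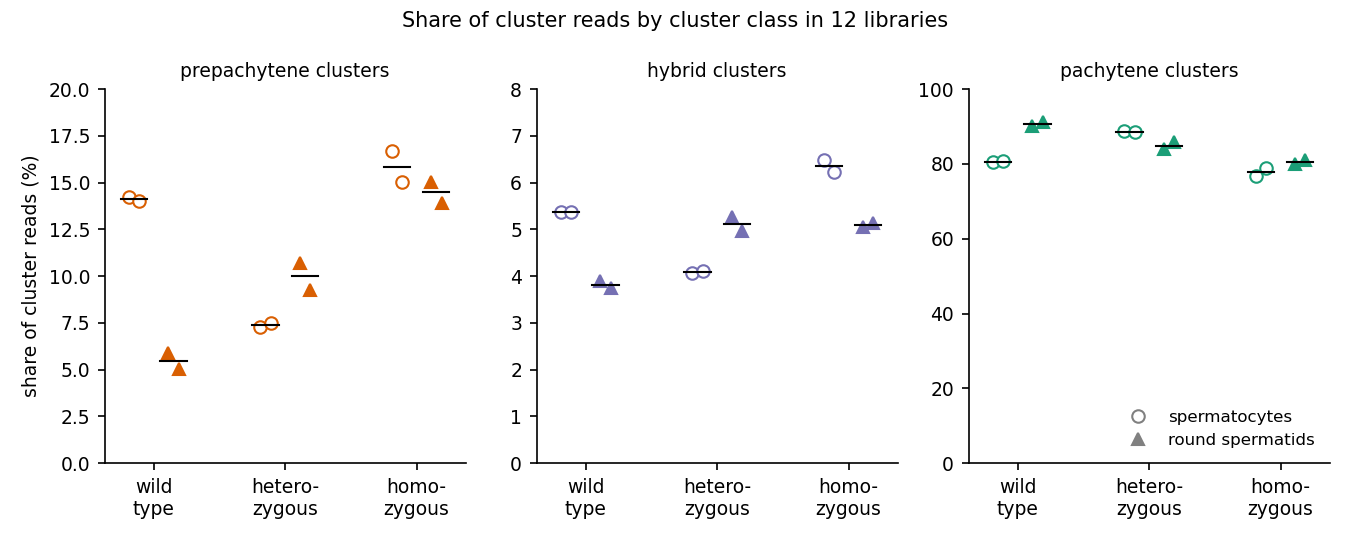
Share of cluster reads (percent, y axis) on prepachytene, hybrid and pachytene clusters in each small RNA library, by genotype and cell type, with a symbol per library and a line at the mean of 2. In wild type the pachytene share is 80.4% and 80.6% in spermatocytes and 90.2% and 91.2% in spermatids.

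Most single clusters differed between the stages. With counts scaled to all cluster reads, edgeR called 175 of 214 clusters at an adjusted p under 0.05 (81.8%), 60 higher in spermatids (28% of those tested) and 115 lower (53.7%). In 202 clusters (94.4%) the libraries of both stages did not overlap, with spermatids above in 70 (32.7%) and below in 132 (61.7%). The median cluster changed by -0.23 on the log2 scale. That shift depends on the scaling, being 0.31 with TMM factors and 0.22 with DESeq2 size factors, so changes are also given relative to the median cluster, which the scaling barely moves. With the 4 wild-type libraries alone edgeR called 184 clusters, 62 higher and 122 lower. By class, 7 prepachytene clusters were higher and 72 lower there, 5 hybrid higher and 21 lower, and 50 pachytene higher and 29 lower.

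Most prepachytene clusters fell. Of 84, 71 were called lower and 4 higher, with a median log2 change of -1.32, or -1.10 relative to the median cluster. Their lower calls held for 61 of 71 with TMM factors and 65 of 71 with DESeq2, and none was called the opposite way. Hybrid clusters were intermediate, with 21 of 30 lower, 5 higher and a median of -0.66 (-0.44 relative). Of their 21 lower calls, 13 held with TMM and 17 with DESeq2, and 3 and 2 were called higher.

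Pachytene clusters split, with 51 of 100 higher, 23 lower and a median of 0.17 (0.40 relative). The 51 higher calls all held with TMM factors and with DESeq2. Of the 23 lower calls, 7 held with TMM and 8 with DESeq2, while 10 and 9 were called higher instead, so the direction of most of these calls depends on the scaling. With TMM factors 85 pachytene clusters were higher and 7 lower, and with DESeq2 83 and 8. The share of higher calls among all called clusters was 34.3% with cluster reads, 56.2% with TMM and 52.4% with DESeq2.

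**Figure D2:**
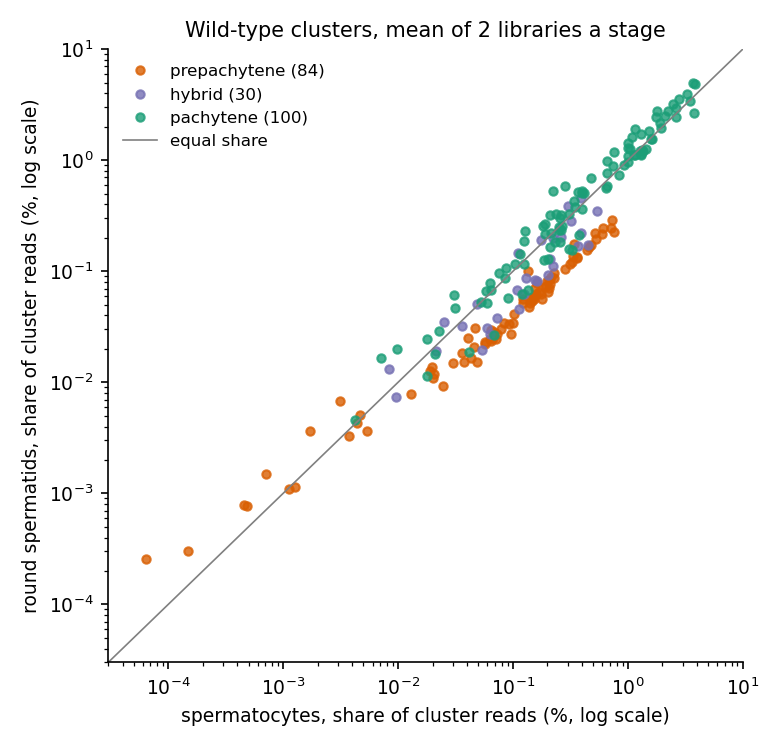
Mean share of cluster reads in wild-type spermatocytes (x axis, percent, log scale) against spermatids (y axis, percent, log scale), with a point per cluster coloured by class (n = 2 libraries each). Prepachytene clusters lie mostly below the diagonal (71 of 84 called lower), and 47 of the 50 most abundant clusters are pachytene.

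The most abundant clusters were all pachytene and together took a larger share in spermatids. The 10 with the highest mean share held 30.8% of spermatocyte cluster reads and 34.8% of spermatid reads. That rise is not particular to them, as the whole pachytene class went from 80.5% to 90.7%. The largest, 2-qE1-35981.1 (chr2:92541142-92599077), held 3.82% and 3.85% in spermatocytes and 4.77% and 4.93% in spermatids. It rose by 0.34 on the log2 scale (SE 0.0257, edgeR adjusted p = 1.62e-06).

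Cluster 18-qE1-36451.1 (chr18:67029447-67066460) held 3.64% and 3.76% in spermatocytes and 4.90% and 4.95% in spermatids, and became the largest cluster of both spermatid libraries. Its log2 change was 0.41 (SE 0.0272, edgeR adjusted p = 1.13e-06). Cluster 9-qC-31469.1 (chr9:67691252-67733786) went from 3.24% and 3.26% to 3.94% and 4.02% (log2 0.29). Also higher were 6-qF3-28913.1 (2.80% in both spermatocyte libraries, 3.588% and 3.603% in spermatids), 9-qA5.3-24188.1 (log2 0.36), 7-qD2-24830.1 (0.31) and 5-qG3-23659.1 (0.18). These 7 clusters rose under each of the 3 scalings.

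The chromosome 17 pair went the other way in share. Cluster 17-qA3.3-26735.1 (chr17:27325197-27367483) was the largest cluster of 1 spermatocyte library, at 3.87% and 3.68%, and held 2.67% and 2.66% in spermatids. Its share fell by 0.50 (SE 0.0386, edgeR adjusted p = 1.62e-06), but the call was lost with DESeq2 (-0.05) and the sign turned with TMM factors (0.04, not called). Its neighbour 17-qA3.3-27363.1 went from 2.69% and 2.61% to 2.44% in both (log2 -0.12), a call that turned to higher with TMM (0.42) and DESeq2 (0.33) and was lost without spermatocyte library 1 or without either spermatid library. Relative to the median cluster the pair changed by -0.28 and 0.10. Cluster 5-qF-14224.1, at 3.53% and 3.47% in spermatocytes and 3.43% and 3.38% in spermatids, was not called (log2 -0.04, edgeR adjusted p = 0.371), though it was called higher with TMM (0.50) and DESeq2 (0.41).

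Reads were concentrated on fewer clusters in spermatids. The 22 largest clusters were needed to reach 50% of cluster reads in each spermatocyte library and 17 in each spermatid library. For 90% of reads, 98 clusters were needed in each spermatocyte library and 75 and 71 in the spermatid libraries. The effective number of clusters, the exponential of the Shannon entropy, was 95.5 and 95.3 in spermatocytes and 76.4 and 74.3 in spermatids.

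**Figure D3:**
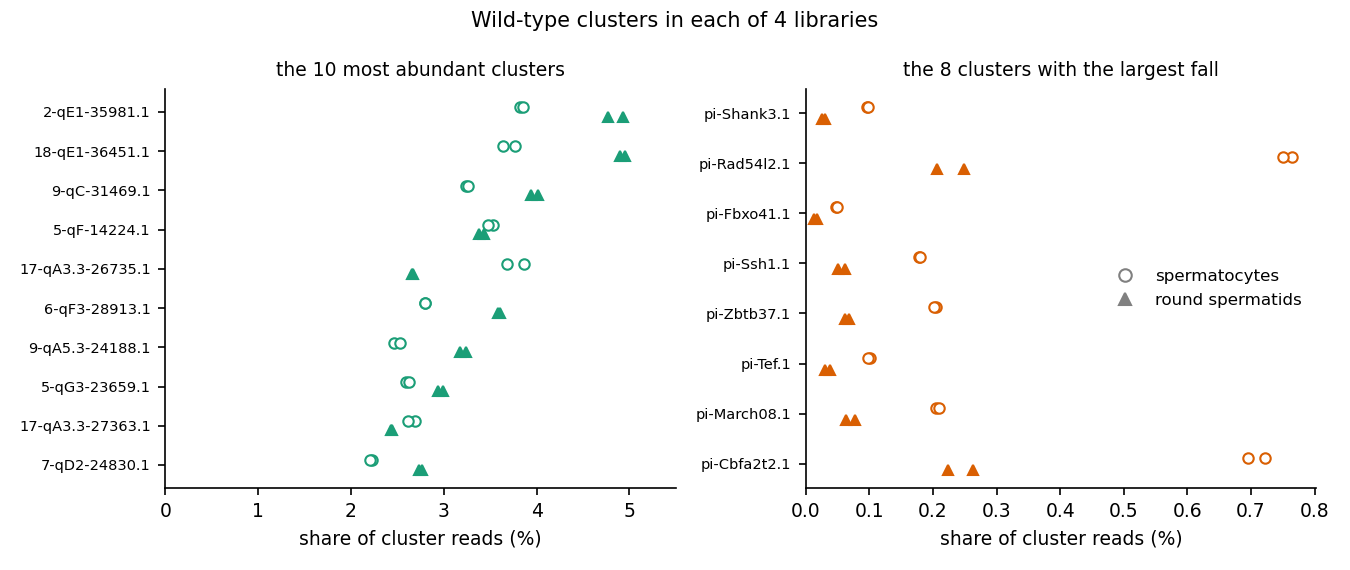
Share of cluster reads (percent, x axis, separate scales) of the 10 most abundant clusters (left) and the 8 with the largest fall (right), with a symbol per wild-type library, open circles for spermatocytes and triangles for round spermatids. The spermatid points of pi-Rad54l2.1 (0.249% and 0.207%) lie below its spermatocyte points (0.765% and 0.7498%), and those of 2-qE1-35981.1 lie above; the lower shares of the 17-qA3.3 pair in spermatids change sign with TMM factors.

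The 3 most abundant prepachytene clusters lie in protein-coding host genes and were 2.50- to 3.32-fold lower in spermatids. Cluster pi-Rad54l2.1, within the gene of a RAD54-like helicase (chr9:106688082-106789172), held 0.765% and 0.7498% in spermatocytes and 0.249% and 0.207% in spermatids. Its share fell by 1.73 (SE 0.109, edgeR adjusted p = 1.13e-06), a 3.32-fold difference. Cluster pi-Phf20.1, in the gene of a chromatin reader protein, went from 0.734% and 0.720% to 0.315% and 0.266% (log2 -1.32). Cluster pi-Cbfa2t2.1, in a transcriptional corepressor gene, went from 0.721% and 0.695% to 0.262% and 0.224% (log2 -1.54).

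The largest fall was that of pi-Shank3.1, in the gene of a synaptic scaffold protein. Its share was 0.0954% and 0.0979% in spermatocytes and 0.0296% and 0.0252% in spermatids, a log2 change of -1.82 (SE 0.163, edgeR adjusted p = 3.35e-06). Next came pi-Rad54l2.1, pi-Fbxo41.1 (-1.68), pi-Ssh1.1 (-1.67), in a cofilin phosphatase gene, and pi-Zbtb37.1 (-1.65). Clusters pi-Tef.1 (-1.56), in the gene of a bZIP transcription factor, and pi-March08.1 (-1.55), in a membrane ubiquitin ligase gene, followed. The 8 largest falls were all prepachytene, and their 2 spermatid libraries lay below both spermatocyte libraries. Spermatid library 1 stood above library 2 in 80 of 84 prepachytene clusters (median log2 0.22) and in 49 of 100 pachytene clusters. The prepachytene fall was found against either one, with a median of -1.45 without spermatid library 1 and -1.21 without library 2.

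The prepachytene clusters that did not fall were mostly those with few reads. Of 9 with a mean under 1000 reads, 3 were higher, none was lower and the median log2 change was 0.80. Of the other 75, 1 was higher and 71 lower, with a median of -1.36. The higher ones were 1-qE2.3-2.1, a 0.122 kb interval with 15 and 20 reads in spermatocytes and 63 and 61 in spermatids (log2 1.99), pi-Igsf9b.1 (1.13), pi-Hif1an.1 (1.11) and pi-Rplp1.1 (1.09). The pi-Rplp1.1 call (150, 233, 394 and 329 reads) was lost without spermatocyte library 1 or without either spermatid library. Their share is at most 0.00769% of cluster reads in any wild-type library.

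Among pachytene clusters the largest rise was that of 4-qB3-3994.1 (chr4:57360191-57364266). Its share went from 0.222% and 0.221% to 0.508% and 0.550%, a log2 change of 1.26 (SE 0.0657, edgeR adjusted p = 5.97e-07) and 2.39-fold. Cluster 8-qE1-3748.1 went from 0.285% and 0.280% to 0.591% and 0.579% (log2 1.05). Clusters 10-qA3-143.1 (1.24) and 4-qD2.2-349.1 (1.02) rose from under 0.0103% of reads.

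Of the pachytene clusters, 23 were called lower in share. Chosen after their values were seen, the lowest were 10-qC1-117.1 (-1.36), 9-qF4-150.1 (-1.15), 8-qA4-155.1 (-1.07) and 10-qB5.1-221.1 (-0.98). Cluster 10-qC1-117.1 held 0.0682% and 0.0691% in spermatocytes and 0.0289% and 0.0246% in spermatids. Over the 100 pachytene clusters, the Spearman correlation of the log2 change was -0.06 with interval length and 0.11 with mean share. Over the 84 prepachytene clusters it was -0.55 with length and -0.62 with mean share, as a description of clusters from the same libraries. Chromosome medians of pachytene clusters ran from -0.19 on chromosome 10 (12 clusters) to 0.47 on chromosome 4 (7 clusters).

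Of the hybrid clusters, the most abundant, pi-Cbl.1, in the gene of an E3 ubiquitin ligase, went from 0.534% and 0.542% to 0.359% and 0.338%. Its share fell by 0.63 (SE 0.0472, edgeR adjusted p = 1.62e-06), a call lost with TMM factors (-0.09). The next 2 in abundance rose: 15-qE1-3710.1 from 0.383% and 0.393% to 0.454% and 0.466% (log2 0.25) and 6-qF3-3040.1 from 0.300% and 0.308% to 0.394% and 0.382% (log2 0.35). The call of 15-qE1-3710.1 was lost when any 1 of the 4 wild-type libraries was left out. The 3 other hybrid clusters called higher were pi-Asb1.1 (0.41), pi-BC026590.1 (0.47) and pi-Exoc8.1 (0.67). Cluster 6-qF3-1063.1 was lower in share (-0.18) but higher with TMM (0.36) and DESeq2 (0.26).

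Neighbouring clusters separated by under 2 kb formed 15 pairs, all pachytene, with gaps of 38 to 195 bp. If both arms of a pair changed alike, the ratio of their reads would be equal in both stages. In 14 of 15 pairs the ratios of the 2 stages did not overlap between libraries. Lack of overlap was as common for the shares of single clusters (202 of 214, 94.4%), so the count is not particular to pairs. It was not made for other pairs of pachytene clusters. The median absolute difference of log2 changes within pairs was 0.31 (range 0.01 to 1.22), beside 0.43 over all 4950 pairs of pachytene clusters.

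Ratios within a library do not depend on the scaling. In the 17-qA3.3 pair whose gap is printed above, the ratio of left to right arm was 0.697 and 0.710 in spermatocytes and 0.914 and 0.915 in spermatids. In the 7-qD2 pair it went from 1.94 and 1.92 to 2.50 and 2.44, and in the 12-qE pair from 1.12 and 1.12 to 1.82 and 1.78. In the 9-qC pair it went down, from 2.96 in both to 2.43 and 2.44.

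The widest separations were those of the 10-qB5.1 pair (1.22) and the 18-qE1 pair (0.75), followed by the 12-qE pair (0.69). In the 18-qE1 pair the large arm 18-qE1-36451.1 rose and the small arm 18-qE1-1295.1 fell in share (log2 -0.33, with sign turned to 0.21 by TMM and 0.12 by DESeq2), and their ratio went from 15.8 and 16.1 to 26.5 and 27.1. In the 10-qB5.1 pair, chosen after its values were seen, 10-qB5.1-5404.1 rose (0.24) and 10-qB5.1-221.1 fell (-0.98), with ratios of 5.66 and 5.48 in spermatocytes and 13.2 and 12.8 in spermatids. The exception was the 6-qF3 pair, 6-qF3-8009.1 and 6-qF3-28913.1. Its ratio was 0.358 and 0.359 in spermatocytes and 0.370 and 0.353 in spermatids, and both arms rose (0.37 and 0.36). Reads that match both arms of a pair could be counted in either, and the sources used here do not give the counting rule.

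**Figure D4:**
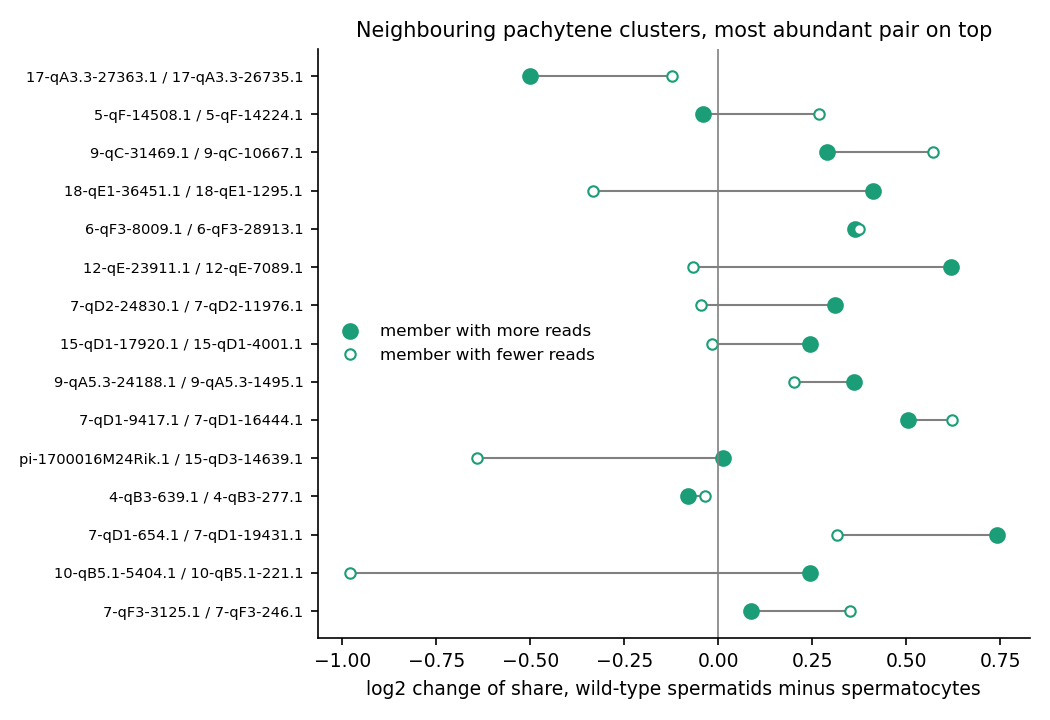
log2 change of share, spermatids minus spermatocytes (x axis), for both members of the 15 pachytene pairs with gaps of 38 to 195 bp, a row per pair, filled for the member with more reads and open for the other. The members of the 6-qF3 pair lie together and those of the 10-qB5.1 pair are 1.22 apart; under TMM or DESeq2 scaling all points move up together and some below 0 cross it.

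Host gene RNA was read from the wild-type round spermatid libraries (n = 2), with no spermatocyte RNA analysed here, and covered 112 of the 114 genic clusters. The host level had a median of 3.17 TPM, and 82 hosts had at least 1 TPM. Over the 112 clusters the Spearman correlation between host TPM and the share of cluster reads in spermatids was 0.04, and with the log2 change it was 0.19. Host TPM is normalised for length and the share of a cluster is not, so the 2 are unlike measures. Rplp1, which encodes a ribosomal stalk protein, had 1606 and 1175 TPM. Cluster pi-Rplp1.1, an interval of 1.256 kb, held 0.00151% of spermatid cluster reads. Rad54l2 had 0.62 and 2.78 TPM, and pi-Rad54l2.1, an interval of 101.09 kb, held 0.228%. How much of this contrast in share goes with interval length was not tested. Among the hybrid hosts, Ip6k1 (chosen after its values were seen), encoding an inositol phosphate kinase, had 196 and 273 TPM, and the share of pi-Ip6k1.1 fell by 1.36.

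With the labels as given, the same stage comparison differed in direction in heterozygous libraries. Their prepachytene share was 7.26% and 7.52% in spermatocytes and 10.7% and 9.24% in spermatids, and their pachytene share 88.7% and 88.4% and then 84.0% and 85.8%. In homozygous libraries the prepachytene share was 16.7% and 15.0% in spermatocytes and 15.0% and 13.9% in spermatids, and the pachytene mean went from 77.8% to 80.4%. In wild type the prepachytene means were 14.1% and 5.47%, and the spermatid libraries of the 3 genotypes did not overlap in that share.

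In heterozygous libraries edgeR called 149 clusters between stages (69.6%), 116 higher (54.2%) and 33 lower (15.4%), but 51 higher and 53 lower with TMM factors and 71 and 50 with DESeq2. Of the 71 prepachytene clusters lower in wild type, 53 were higher and 2 lower in heterozygotes, against 20 and 2 with TMM factors and 36 and 2 with DESeq2. In homozygous libraries 160 were called (74.8%), 59 higher (27.6%) and 101 lower (47.2%), but 93 higher and 54 lower with DESeq2. There, 31 of the same 71 clusters were lower and 11 higher, but 14 and 28 with DESeq2, and the prepachytene median of -0.20 turned to 0.09 with DESeq2.

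The test of the difference in stage change called 168 clusters for heterozygous minus wild type (78.5%), 118 above 0 (55.1%) and 50 below (23.4%), but 91 and 101 with TMM factors and 93 and 96 with DESeq2. It called 173 for homozygous minus wild type (80.8%), 110 above (51.4%) and 63 below (29.4%), but 64 and 107 with TMM factors. Prepachytene clusters had a median difference of 1.75 in heterozygotes, with 69 of 84 above, and of 1.07 in homozygotes, again with 69 above. With TMM factors 64 and 48 were above, and with DESeq2 65 and 68. Relative to the median cluster these medians were 1.22 and 0.76. Pachytene clusters had 28 above and 44 below in heterozygotes and 28 above and 50 below in homozygotes, and with TMM factors 11 above and 82 below and 13 above and 78 below. Both differences share the wild-type libraries. They also rest on the cell type labels of the wild-type and knock-in libraries. The likeness of libraries given above went against these labels in some groups but not in all. Whether labels were exchanged was not tested.

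**Figure D5:**
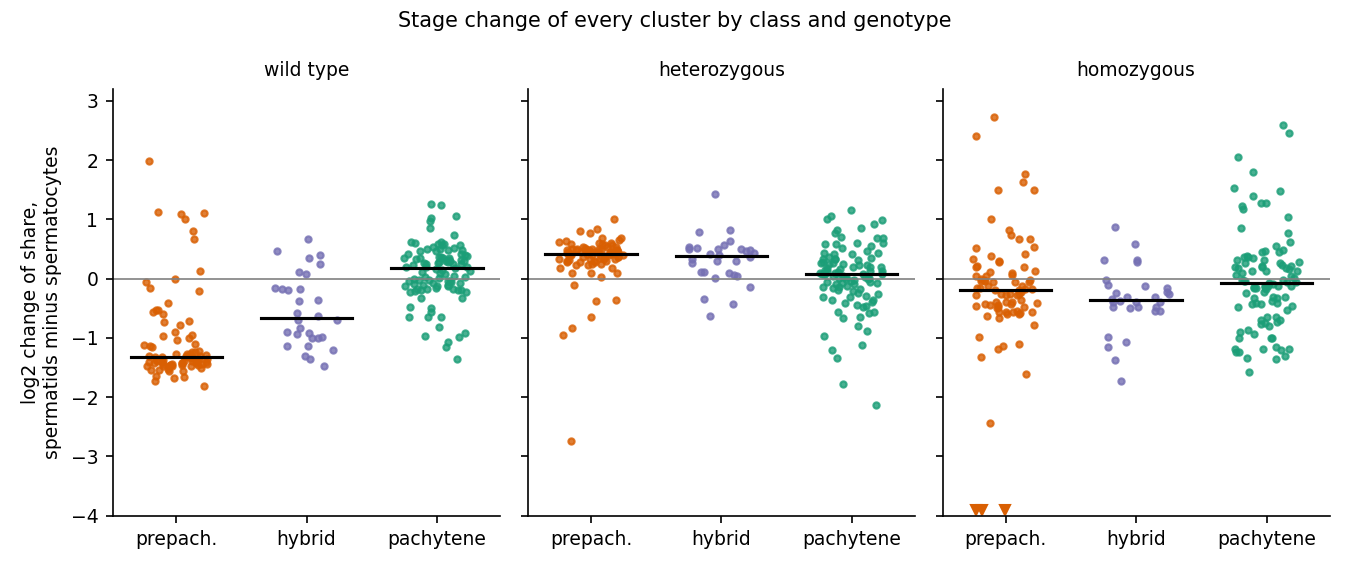
log2 change of share, spermatids minus spermatocytes (y axis), of each cluster in wild-type, heterozygous and homozygous libraries, by class (n = 2 libraries per stage and genotype). Prepachytene medians are -1.32, 0.42 and -0.20 with counts scaled to cluster reads (the last is 0.09 with DESeq2); downward triangles at -4 mark 3 clusters with no reads in homozygous spermatids, whose fitted value is no bound, and other scalings shift all points of a genotype together.

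With the labels as given, the stage change of single abundant clusters differed between genotypes in both directions. Cluster 7-qD1-19431.1 held 1.14% and 1.16% in wild-type spermatocytes and 1.90% and 1.95% in spermatids, and 1.56% and 1.55% against 0.440% and 0.462% in heterozygotes. The heterozygous minus wild-type difference in stage change was -2.53 (SE 0.0482, edgeR adjusted p = 1.59e-10). In homozygotes this cluster held 0.386% and 0.399% in spermatocytes and 1.14% and 1.13% in spermatids. Those spermatid values lay near the wild-type spermatocyte values. Cluster 12-qE-23911.1 went from 1.78% and 1.83% to 2.75% and 2.81% in wild type and from 2.68% and 2.63% to 1.41% and 1.47% in heterozygotes. The difference was also below 0 for 15-qD3-14639.1 (-1.35) and 9-qC-31469.1 (-0.69).

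Against homozygotes, 5-qF-4633.1 stood out with 1.57% and 1.58% in wild-type spermatocytes, 1.55% and 1.54% in wild-type spermatids, and 1.14% and 1.12% against 6.49% and 5.94% in homozygotes. Its difference in stage change was 2.49 (SE 0.0591, edgeR adjusted p = 1.23e-09). Cluster 4-qB3-3994.1, the largest pachytene rise in wild type, went from 0.635% and 0.649% to 0.264% and 0.291% in homozygotes, a difference of -2.47. Cluster 6-qC3-6258.1 differed by -1.54 and 15-qD3-14639.1 by 1.21. These differences kept their sign and stayed called under every alternative run, TMM and DESeq2 included. Every alternative took the cell type labels as given.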

How the data were processed

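Small RNA of enriched testis germ cell fractions was counted per piRNA cluster. The authors deposited whole-number read counts per cluster, per the file headers and values, with 214 clusters listed in 10 libraries and 210 in each homozygous spermatid library. The authors also deposited gene tables with TPM for round spermatid RNA, of which only the 2 wild-type libraries were used. The submitters' processing notes name Trim Galore and mm10. Not given in the sources used here are the aligner, the counter and the handling of reads that match several clusters. Isoform tables and the other RNA libraries were not used here. Cluster starts are 1-based mm10 positions, and sequences come from RefSeq promoter tables (GRCm38.p6).

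The 12 libraries were fitted in edgeR 4.0.16 (R 4.3.3; quasi-likelihood F test, 6 groups of 2, filterByExpr, which kept all 214 clusters) with library size set to summed cluster reads and no further factors. The Benjamini-Hochberg threshold was 0.05. SE is the log2 change divided by the square root of F. Interaction contrasts tested differences between genotypes. Alternatives were TMM factors, DESeq2 1.42.0, read totals without the 5 most abundant clusters (all 214 still tested) and read filters. Others were a replicate block, the 4 wild-type libraries alone and leaving out each library. The fit was tested on simulated counts. A cluster unlisted in a library was set to 0 there; this touched 5 clusters, in homozygous spermatids only.

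Named clusters were the 10 most abundant, the 8 largest rises and falls called without overlap of libraries, the 3 most abundant per class, up to 4 with the smallest p per interaction, those of 5 bands known from mouse deletions (2-qE1, 6-qF3, 9-qC, 17-qA3.3 and 18-qE1), and members of the 5 most abundant pairs, 41 clusters in all; others are said to be chosen after their values were seen or complete a short count. The members and lists were chosen with earlier results of these data known.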

Additional observations from a re-analysis of the deposited data

Results flagged for a closer look

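The stage change of 168 clusters differed between heterozygous and wild-type libraries, and that of 173 clusters between homozygous and wild-type libraries, by the edgeR interaction test. Of the 41 named clusters, 34 differed in heterozygotes and 38 in homozygotes. Both tests take the cell type labels of the wild-type and knock-in libraries as given. The likeness of libraries went against the labels in some groups but not in all.

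The heterozygous minus wild-type difference in log2 stage change was -2.53 for 7-qD1-19431.1, -1.35 for 15-qD3-14639.1, -1.499 for 12-qE-23911.1 and -0.69 for 9-qC-31469.1. The homozygous minus wild-type difference was 2.49 for 5-qF-4633.1, 1.21 for 15-qD3-14639.1, -2.47 for 4-qB3-3994.1 and -1.54 for 6-qC3-6258.1. These clusters were picked as those with the smallest p in each test. The groups hold 2 libraries each, too few for a check of single libraries that stand apart.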

How the results depend on the processing

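Scaling was the choice that moved most results. Higher calls in wild type numbered 104 with TMM factors and 99 with DESeq2. The heterozygous stage change gave 51 higher and 53 lower with TMM and 71 and 50 with DESeq2, and the homozygous one 93 higher and 54 lower with DESeq2. Differences from wild type below 0 numbered 101 with TMM and 96 with DESeq2 in heterozygotes, and in homozygotes TMM gave 64 above and 107 below. Median log2 changes with TMM and DESeq2 were -0.78 and -0.87 for prepachytene clusters, -0.12 and -0.21 for hybrid clusters, 0.71 and 0.62 for pachytene clusters, and 0.31 and 0.22 for all clusters, the last with the sign reversed. The median of all clusters was -0.39 with a minimum mean of 1000 reads and ran from -0.32 to -0.24 when a wild-type library was left out. Signs were reversed, with TMM and DESeq2, for 5-qF-14224.1 (0.50 and 0.41), 17-qA3.3-27363.1 (0.42 and 0.33), 5-qF-4633.1 (0.51 and 0.42), 6-qF3-1063.1 (0.36 and 0.26) and 18-qE1-1295.1 (0.21 and 0.12), and with TMM for 17-qA3.3-26735.1 (0.037). Cluster 5-qF-4633.1 was at 0.0032 without the 5 most abundant clusters. Over the fits that left out a wild-type library, 15-qD3-14639.1 ran from -0.0044 (without spermatid library 2) to 0.031 (without spermatid library 1). That range does not cover the other scalings. Without the 5 most abundant clusters fewer reads form the total. The difference in class share, spermatids minus spermatocytes, was then -10.4 (prepachytene), -1.79 (hybrid) and 12.2 points (pachytene). With all clusters it was -8.64, -1.55 and 10.2 points. By position it was -11.9 (genic) and 11.9 points (intergenic), against -9.95 and 9.95 with all clusters. Pairs within 10 kb (18) had a median difference of 0.27. Apart from the scaling itself, the cause of these shifts was not tested.

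With a replicate block 176 clusters were called in wild type, 60 higher and 116 lower, and all 41 named clusters kept their call. The labels do not say that numbers pair samples, and same-numbered wild-type libraries deviated with a correlation of -0.17. Leaving out a wild-type library gave 162 to 166 calls. Leaving out a knock-in library, an alternative chosen after seeing the data, gave 156 to 186 calls for the heterozygous and 165 to 189 for the homozygous difference. Depth limits clusters with few reads: the 95% Wilson interval spans up to 52.2% of the value to either side for 1-qE2.3-2.1, against 0.253% for the 10 most abundant clusters.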
